A study of Homo sapiens with 16 samples.

Results

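NAMPT, the gene of nicotinamide phosphoribosyltransferase (ENSG00000105835.13), lies on the minus strand of chromosome 7 at 106248298 to 106285966 in hg38. The locus was taken as the GENCODE 44 gene body extended by 150 kb on each side, chr7:106098298-106435966, and every H3K27ac peak that touched it was recorded in 16 peak lists. H3K27ac is the acetylation of lysine 27 of histone H3, which marks active promoters and enhancers. Overlapping peaks of different lists were merged. Of 64545 merged regions in the genome 32 touched the locus, and 25 of these were among the 55219 consensus regions, those with a peak in at least 2 lists. They are numbered R1 to R25 from the lower coordinate, so that regions above R13, which holds the NAMPT start, lie upstream of the gene.

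The lists came from MDA-MB-231 and Hs578T, established human lines of triple-negative breast cancer (TNBC). From either line came a CRISPR control and a knockout (KO) of Fn14, the receptor of the cytokine TWEAK, edited with 2 guides. All cells were seeded for 24 h in DMEM with 10% FBS, starved in optimem for 8 h, and then left untreated or given 10 ng/ml TWEAK for 48 h, replenished after 24 h. There were 2 lists in each of the 8 groups. The labels do not say whether replicates were separate cultures, so p-values measure the spread between these lists.

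NAMPT catalyses the rate-limiting step of the salvage pathway, in which nicotinamide is turned into nicotinamide mononucleotide and then into NAD+. NAD+ carries electrons in energy metabolism and is consumed by sirtuins and PARP enzymes. Enhancers are distal elements that raise transcription of a target gene, and clusters of them, called super-enhancers (SEs), are joined from neighbouring acetylated peaks.

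The 16 lists held 39544 to 47197 peaks over 64.2 to 88.9 Mb, and sequencing depth is unknown. Fold enrichment is the peak caller's single value for a whole broad peak, so it describes height averaged over the peak's width. The median −log10 q-value was 5.79 to 7.69 in the MDA-MB-231 Fn14 KO lists and 9.44 to 10.8 in the MDA-MB-231 control lists. Mesenchymal VIM and ZEB1 had a promoter peak in 16 of 16 lists, the matrix gene SPARC in 12, epithelial CDH1 in 0, and the hormone receptor genes ESR1 and PGR in 0. The epithelial genes EPCAM, KRT8 and KRT18 and the receptor gene ERBB2 had one in all 16, with KRT8 and KRT18 in a shared region. With TWEAK in control cells SPARC fell by 1.79 and EPCAM by 0.28 on the log2 scale (adjusted p = 2.3e-07 and 0.012, limma), and the other markers with a region did not pass. The Fn14 gene TNFRSF12A kept a promoter peak in all 16 lists. Its region was lower in untreated Fn14 KO than in control cells (log2 difference −0.73, adjusted p = 0.00014, limma), and a peak there does not check the edit.

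To place the 3 constituent enhancers that the study deleted in MDA-MB-231 cells, the cut sites were located in hg38. No deletion was present in the cells of these lists. Each target site occurred once in the genome next to an NGG motif. The sites are shown because they bound the 3 measured intervals. They are written 5′ to 3′ on the guide's strand with the PAM in capitals, and lower and higher refer to the coordinate.
Enhancer 1, lower site: gtggggatggtataaacaccAGG
Enhancer 1, higher site: taaggtggaagtacagacacAGG
Enhancer 2, lower site: gcaggaaatgagggacaacgTGG
Enhancer 2, higher site: atcatcaaaacagagccagtGGG
Enhancer 3, lower site: aagtgctctcagagtccatgGGG
Enhancer 3, higher site: acatgtttgataacccaatgTGG

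Between the cuts, enhancer 1 spans chr7:106313180-106314259 (1080 bp), 27.2 kb upstream of the NAMPT start. Enhancer 2 spans chr7:106329468-106330486 (1019 bp), 43.5 kb upstream, and enhancer 3 spans chr7:106345015-106345921 (907 bp), 59.0 kb upstream. Enhancers 2 and 3 lie in sequence between annotated genes. The consensus region around enhancer 1 (R15) also holds the start of a processed pseudogene, LARP1BP2. The 300-base window of each interval that held the most motif matches is given on the plus strand of hg38, with matches in capitals. The motifs were the AP-1 site TGANTCA, the small MAF site TGCTGA, the TEAD site GGAATG and the NF-kB site, on both strands.
Enhancer 1 window, chr7:106313302-106313601: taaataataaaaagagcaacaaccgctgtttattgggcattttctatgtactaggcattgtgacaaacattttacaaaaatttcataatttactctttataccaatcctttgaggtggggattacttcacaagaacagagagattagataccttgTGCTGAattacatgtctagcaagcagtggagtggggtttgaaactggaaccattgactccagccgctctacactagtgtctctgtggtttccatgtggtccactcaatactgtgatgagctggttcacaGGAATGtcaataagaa
Enhancer 2 window, chr7:106329852-106330151: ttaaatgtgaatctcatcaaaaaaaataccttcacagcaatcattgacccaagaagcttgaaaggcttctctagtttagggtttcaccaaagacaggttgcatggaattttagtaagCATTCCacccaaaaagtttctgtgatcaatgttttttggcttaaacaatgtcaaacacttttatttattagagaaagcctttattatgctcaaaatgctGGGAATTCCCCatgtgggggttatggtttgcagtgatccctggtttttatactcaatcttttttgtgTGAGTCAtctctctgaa
Enhancer 3 window, chr7:106345374-106345673: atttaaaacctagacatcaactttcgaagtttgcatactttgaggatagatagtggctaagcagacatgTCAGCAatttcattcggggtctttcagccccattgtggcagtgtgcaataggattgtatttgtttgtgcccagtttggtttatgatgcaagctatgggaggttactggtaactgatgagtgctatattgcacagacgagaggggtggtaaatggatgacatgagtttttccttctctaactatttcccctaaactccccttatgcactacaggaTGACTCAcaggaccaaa

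Enhancer 3 held 1 AP-1 match (chr7:106345657-106345663) and 1 small MAF site, and no TEAD or NF-kB match. Enhancer 2 held 2 AP-1 matches, 2 TEAD matches and 2 NF-kB matches, and the NF-kB pair overlapped at all but 1 base. Enhancer 1 held 1 small MAF site and 1 TEAD match. No match to any of the 4 motifs fell in the 300-base RefSeq promoter of NAMPT (GRCh38.p14). Windows of the same length at the centres of 55071 consensus regions held the AP-1 motif in 48.5% at the length of enhancer 3 and 50.8% at that of enhancer 2. For the small MAF and TEAD sites the shares were 53.7% and 49.7% at the length of enhancer 1, and the NF-kB motif occurred in 15.3% of windows of the length of enhancer 2. These letters describe the intervals and do not show binding.

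**Figure D1:**
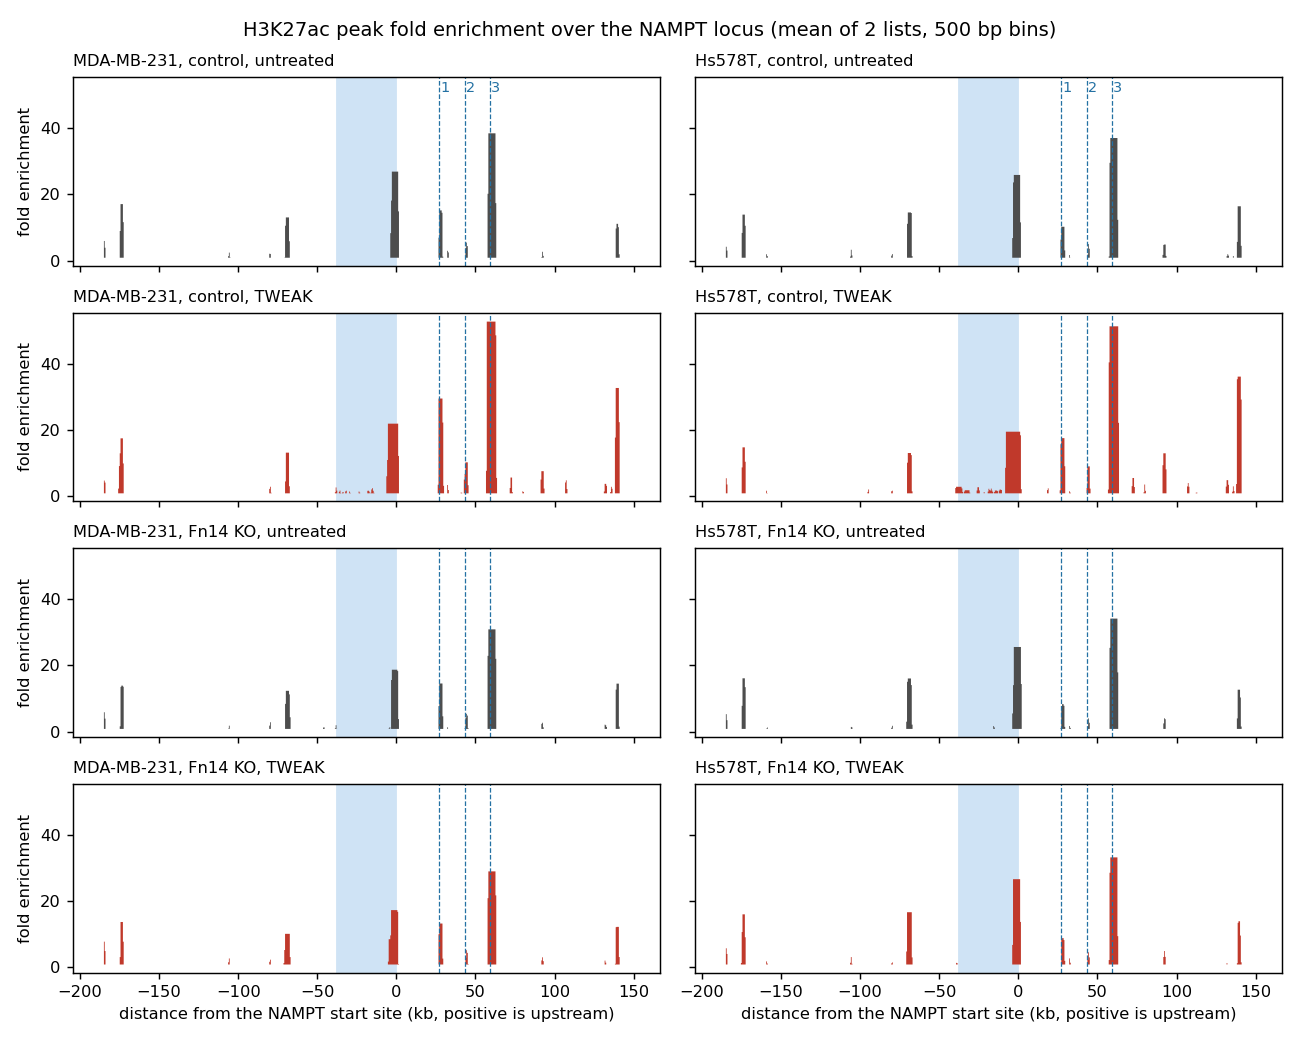
Fold enrichment of H3K27ac peaks against distance from the NAMPT start site in kb, positive upstream, as the mean of 2 lists in 500 bp bins for each of the 8 groups. Shading marks the gene body and dashed lines enhancers 1, 2 and 3, and the TWEAK-treated control panels show taller peaks at enhancers 1 to 3 and at the far upstream region, and a wider start peak with a lower mean, than the untreated control panels.

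The NAMPT locus was acetylated before treatment. In every list a peak lay at the NAMPT start, at each of the 3 enhancers, and at 5 further regions: R1 and R2 at the neighbouring gene SYPL1, R7 in the intergenic part downstream of NAMPT, and R21 and R25 upstream. SYPL1, the other protein-coding gene that touches the window, encodes a membrane protein of the synaptophysin family. The enhancer 3 peak was the tallest at the locus in each list. Its rank by fold enrichment among all peaks of a list lay between 13 and 149, hence within the top 0.33% everywhere, and the peak was 4826 to 6307 bp wide. The enhancer 2 peak was the lowest of the 3 enhancer peaks in each list.

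With TWEAK the 3 enhancer peaks were taller in control cells of both lines. At enhancer 3 the fold enrichment in MDA-MB-231 control cells was 37.4 and 39.7 untreated and 51.6 and 54.1 with TWEAK, and in Hs578T control cells 40.4 and 33.9 untreated and 48.5 and 54.3 with TWEAK. All 4 treated lists lay above all 4 untreated lists. Over the consensus region around it (R18), the log2 difference was 0.71 (SE 0.08, adjusted p = 2.5e-06, limma), a 1.64-fold rise.

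At enhancer 1 the fold enrichment in MDA-MB-231 control cells went from 13.8 and 16.8 to 30.0 and 29.2, and in Hs578T control cells from 11.5 and 9.23 to 17.3 and 17.9967. The groups did not overlap within a line or across both lines. Its region (R15) rose 2.18-fold (log2 1.12, SE 0.10, adjusted p = 1.4e-07, limma). At enhancer 2 the values were 5.39 and 5.75 untreated against 10.9 and 9.80 treated in MDA-MB-231 controls, and 4.85 and 5.37 against 9.20 and 9.06 in Hs578T control cells. Its region (R17) rose 2.61-fold (log2 1.39, SE 0.15, adjusted p = 1.1e-06, limma). Treated control peaks set both edges of R15, R17 and R18, so values over these regions combine height and width. Over the deleted intervals the log2 differences in control cells were 0.85 at enhancer 1, 1.02 at enhancer 2 and 0.44 at enhancer 3. The enhancer with the tallest peak therefore had the smallest of the 3 relative rises, although the differences among the 3 rises were not tested.

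In Fn14 KO cells the same peaks did not separate by treatment. At enhancer 3 the 4 untreated Fn14 KO lists ranged from 28.1 to 36.1 and the 4 treated lists from 26.96 to 36.5. At enhancer 1 they ranged from 8.37 to 16.2 untreated and 8.23 to 14.1 treated, and at enhancer 2 from 3.50 to 5.64 and 4.22 to 5.96. The log2 difference in Fn14 KO cells was −0.02 (SE 0.08) for R18, 0.05 (SE 0.10) for R15 and 0.03 (SE 0.15) for R17, each with an adjusted p of 0.99 (limma). The TWEAK effect in control cells exceeded that in Fn14 KO cells by 0.73 for R18 (adjusted p = 0.00017), 1.07 for R15 (adjusted p = 2.8e-05) and 1.36 for R17 (adjusted p = 0.00013), all by limma's interaction contrast.

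**Figure D2:**
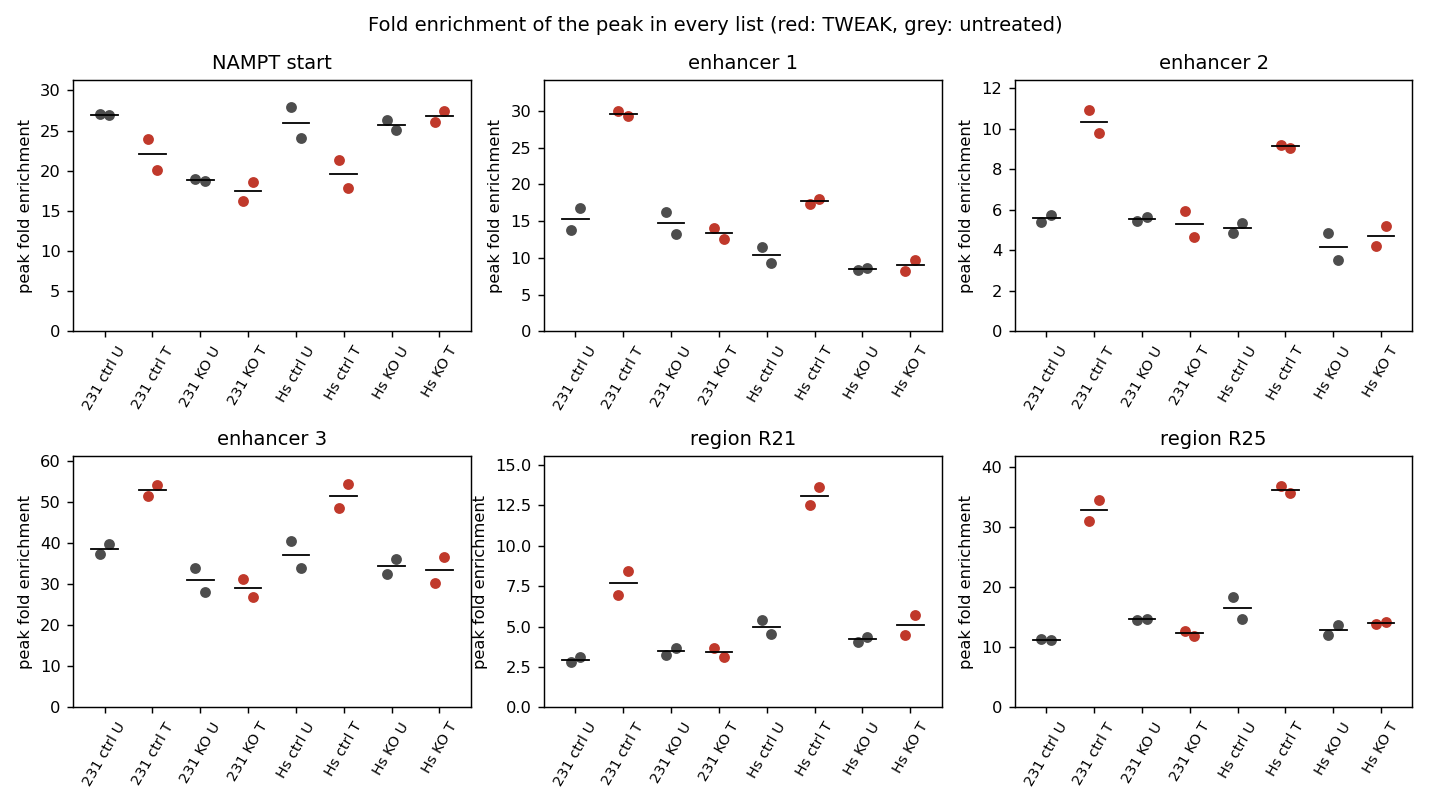
Fold enrichment of the peak (y axis, from 0) at the NAMPT start, the 3 enhancers, R21 and R25 in each of the 16 lists, with a bar at the mean of 2 lists. Axis labels beginning with Hs are Hs578T and the others MDA-MB-231, ctrl is control, U untreated and T TWEAK, and at enhancer 3 the treated control lists sit between 48.5 and 54.3 while all others lie at or below 40.4.

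The same question was put to the signal over the deleted intervals by an exact permutation test, two-sided, on the centred log2 mean fold enrichment. The intervals of enhancers 1 and 3 lay wholly within a wider peak in every list and took its single value. The test therefore does not resolve the deleted bases from the rest of the peak. By this exact test the difference between the TWEAK effects in control and Fn14 KO cells was 0.46 at enhancer 3 (p = 0.028), 0.82 at enhancer 1 (p = 0.034) and 0.91 at enhancer 2 (p = 0.049). Over the 25 exact tests of this family the adjusted values were 0.085, 0.085 and 0.093, so none passed the correction. This permutation exchanges treatment labels, so its null is the absence of any TWEAK effect in either genotype. Within control cells the p-value was 0.0556 for each enhancer, the smallest that 36 exact arrangements can give.

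The peak at the NAMPT start behaved differently: it widened while its mean height was lower. Its width was 4515 and 4973 bp in untreated and 6722 and 7622 bp in TWEAK-treated MDA-MB-231 controls. In Hs578T controls the widths were 4741 and 4841 bp untreated and 9514 and 9951 bp with TWEAK. The treated and untreated control lists did not overlap. The fold enrichment was 27.04 and 26.96 against 24.0 and 20.1 in MDA-MB-231, and 27.9 and 24.1 against 21.4 and 17.8 in Hs578T, so the treated lists were lower within each line. In Fn14 KO cells the width ranged from 4421 to 5324 bp untreated and 4575 to 6024 bp treated. The fold enrichment there was 19.0 and 18.7 untreated and 16.3 and 18.6 treated in MDA-MB-231, and 26.4 and 25.1 untreated and 26.1 and 27.4 treated in Hs578T, so the treated lists were lower in MDA-MB-231 and the groups overlapped in Hs578T.

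Which direction the start showed therefore depended on the measure. Over the whole region R13 (chr7:106277421-106287712, 10292 bp), in which bases outside a peak count as 1, the signal was higher with TWEAK in control cells (log2 0.39, SE 0.09, adjusted p = 0.0028, limma). The difference of this effect from that in Fn14 KO cells was 0.30 (adjusted p = 0.098, limma) and did not pass. Over 2 kb on either side of the start the control effect was −0.31 on the log2 scale (exact permutation p = 0.17), and the Fn14 KO effect was −0.11 (exact permutation p = 0.33). With fold enrichment above 1 multiplied by width, a measure chosen after the data were seen, the effect was 0.41 (exact permutation p = 0.0556, the smallest possible). A widened peak averages its height over more bases, and the lists cannot separate that from a lower summit.

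**Figure D3:**
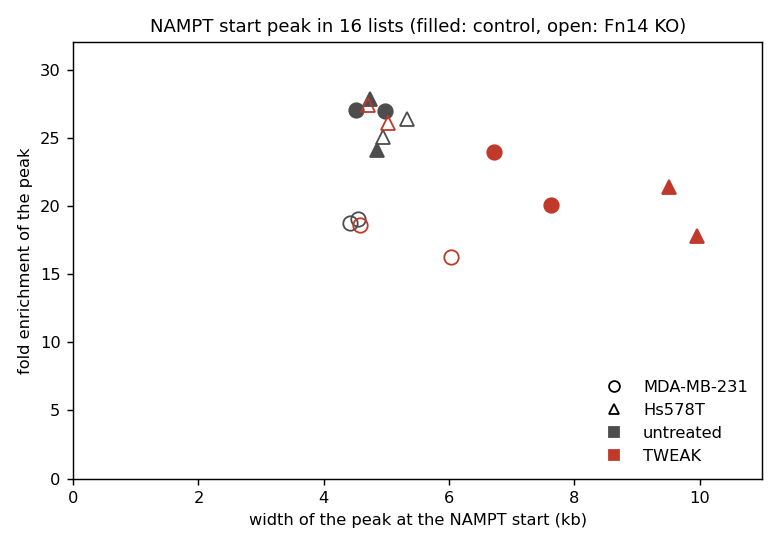
Width in kb (x axis) against fold enrichment (y axis) of the peak at the NAMPT start in 16 lists, circles for MDA-MB-231 and triangles for Hs578T, filled for control and open for Fn14 KO, red for TWEAK and grey for untreated. The 4 treated control lists lie to the right, at widths of 6722 to 9951 bp, and the untreated lists at 4421 to 5324 bp.

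Further upstream, R21 and R25 also had a peak in every list and rose in control cells. R25 (chr7:106423717-106426751), 137.8 kb upstream at the start of the long non-coding RNA gene ENSG00000286076, was the second tallest upstream peak in treated control cells. Its fold enrichment was 11.4 and 11.1 untreated and 31.0 and 34.6 treated in MDA-MB-231 controls, and 18.4 and 14.6 against 36.8 and 35.7 in Hs578T control cells. The 8 Fn14 KO lists ranged from 11.9 to 14.8. R25 rose 3.19-fold in control cells (log2 1.68, SE 0.11, adjusted p = 6.7e-09) and the interaction was 1.70 (adjusted p = 1.1e-06), both by limma.

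R21 (chr7:106376827-106379161), in an intron of the long non-coding RNA gene ENSG00000243797 and 90.9 kb upstream, rose 3.58-fold (log2 1.84, SE 0.15, adjusted p = 7.1e-08, limma). Its fold enrichment was 2.80 and 3.10 against 6.94 and 8.42 in MDA-MB-231 controls, and 5.41 and 4.56 against 12.6 and 13.6 in Hs578T control cells. In the 8 Fn14 KO lists it was 3.12 to 5.69.

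Other upstream peaks appeared only in some lists. R19 (chr7:106357497-106359052), 71.5 kb upstream, had a peak in the 4 TWEAK-treated control lists (fold enrichment 5.62, 5.92, 5.21 and 6.04) and in none of the other 12. R22 (chr7:106392297-106393747), 106.3 kb upstream, had the same presence at fold enrichments of 4.75, 5.11, 4.10 and 4.12. R20 was present in 3 treated control lists (4.68 in MDA-MB-231 replicate 2, 4.86 and 4.47 in Hs578T) and in no other list. R23 was present in all 4 treated control lists at 3.76 to 5.11 and in 6 of the other 12 at up to 3.81. R24 was present in the treated control lists at 2.84 to 3.24 and in 1 untreated Hs578T control list at 3.29. R14 was present in the 2 treated Hs578T control lists alone, at 3.63 and 2.63. These are low peaks, and one close to the calling threshold can be missed without a difference in acetylation.

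More of the gene body lay under peaks in TWEAK-treated control lists, partly because the start peak was wider and partly through added low peaks. Peaks covered 17.02% and 32.8% of the gene body in treated MDA-MB-231 control cells and 50.2% and 43.1% in treated Hs578T control cells. The 4 untreated control lists lay between 8.85% and 10.5%, and the 8 Fn14 KO lists between 9.59% and 13.9%. Outside the start region R13, the 4 treated control lists held 0.721 kb (1 peak) and 5.898 kb (7 peaks) of gene body in MDA-MB-231, and 10.666 kb (5 peaks) and 7.683 kb (6 peaks) in Hs578T. In treated MDA-MB-231 control replicate 1 the widened start peak therefore made up 5.692 kb of the covered gene body. No untreated control list had such a peak, and the untreated Hs578T Fn14 KO lists had 1 each, of 0.227 and 0.563 kb. R8, which spans the gene end and the last exon, was 4550 and 4222 bp wide in treated Hs578T control cells with fold enrichments of 3.01 and 2.94. R8 of treated MDA-MB-231 controls had fold enrichments of 3.12 in replicate 1 and, from 2 peaks, 2.87 and 2.64 in replicate 2. R8 also had a peak in both untreated MDA-MB-231 Fn14 KO lists (2.41 and 2.82) and in 1 treated Hs578T Fn14 KO list (2.90). These 3 peaks, and that of treated MDA-MB-231 control replicate 1, lay beyond the gene end, outside the gene body. R10 and R11 had peaks in both treated Hs578T control lists at 2.57 to 2.85, and R11 also in treated MDA-MB-231 control replicate 2 at 2.59. R12 had peaks in 3 treated control lists at 2.54 to 2.69 and in both untreated Hs578T Fn14 KO lists at 2.78 and 2.59. R9 was not called (adjusted p = 0.15, limma), with peaks in 1 treated control list of each line.

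One region went the other way. R4 (chr7:106179522-106180486), between annotated genes on the downstream side of NAMPT, had a peak in all 4 untreated control lists (3.43, 2.99, 3.31 and 3.54) and in none of the 4 treated control lists. In Fn14 KO cells it had a peak in all 4 treated lists (3.15, 2.83, 3.76 and 2.83) and in 2 of 4 untreated lists. It fell by 1.28 on the log2 scale in control cells (adjusted p = 0.00067), and the interaction was −2.05 (adjusted p = 0.00044), both by limma.

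Counted over the locus, 17 of 25 regions were higher and 1 lower with TWEAK in control cells, averaged over the lines, by limma at an adjusted p of 0.05. Of all 55219 consensus regions, 22.8% were higher and 22.3% lower. In MDA-MB-231 alone 9 were higher and 1 lower, against 9282 and 8577 of all regions. In Hs578T alone 16 were higher and 1 lower, against 8933 and 8089. R5, R10 and R14 had no peak in any MDA-MB-231 list. The median log2 difference was 0.64 over the 25 regions and −0.02 over all regions. Regions that exist only because the treated lists hold a peak had to differ, so the count of 25 is a description. Of the 9 locus regions with a peak in all 16 lists, 6 were higher and 0 lower, against 25.3% higher and 26.9% lower of all 28337 such regions. The 6 were R13, R15, R17, R18, R21 and R25. The other 3 were R1 (log2 0.07), R2 (0.13) and R7 (−0.18), all on the downstream side towards SYPL1 and none past the test. Treated control peaks set both edges of R15, R17, R18 and R21 and the lower edge of R13. Bases outside a peak count as 1, so the treated arm shaped this count too, and it is a description as well.

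In Fn14 KO cells 0 of 25 regions were higher and 0 lower by limma, as for 0% and 0% of all regions, and 1 (R4) had an unadjusted p of at most 0.05. The median log2 difference was 0.05 over the 25 and 0.01 over all regions. The 0.05 is the value of regions without a peak in any Fn14 KO list, such as R19. It comes from the centring of the lists and is not measured acetylation. The TWEAK effect was larger in control than in Fn14 KO cells at 11 of 25 regions and smaller at 1 by limma, against 15.9% and 14.2% of all regions. Among the 9 regions present in all lists the counts were 5 and 0, against 18.9% and 18.7%. As above, treated control peaks set edges of some of these regions, so this count too is a description. Control and Fn14 KO lists are separate samples, so the 2 effects share no list.

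By presence alone, 6 regions had a peak in both treated and neither untreated list of MDA-MB-231 controls (R8, R12, R19, R22, R23 and R24), against 5.58% of all regions. In Hs578T control cells 8 were gained (R5, R8, R10, R11, R14, R19, R20 and R22), against 5.09%. R5, R10, R11, R14, R19, R20 and R22 had peaks in treated control lists alone. They entered the consensus set through the arm in which they count as gained, so these counts are descriptions. R4 was the 1 region lost in either line, against 4.49% and 4.65%. In Fn14 KO cells 0 of 25 were gained in either line, against 0.321% in MDA-MB-231 and 1.05% in Hs578T. R8 was lost in MDA-MB-231 Fn14 KO cells and R12 in Hs578T Fn14 KO cells, against 1.35% and 0.829%. Presence alone cannot register the start, the 3 enhancers, R21 or R25, which had a peak in every list.

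**Figure D4:**
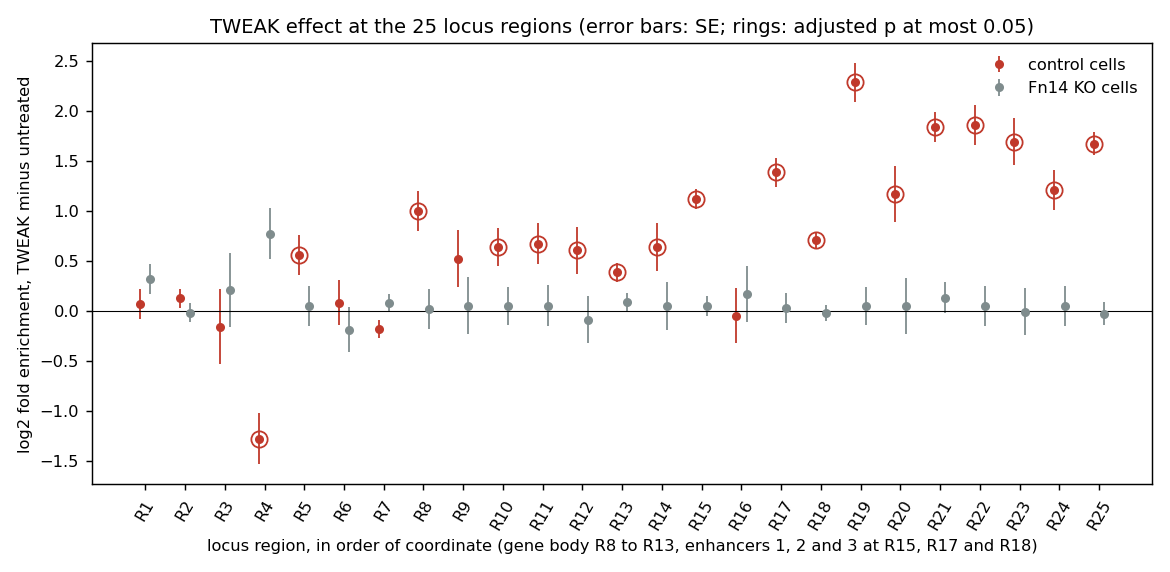
Log2 difference between TWEAK and untreated (y axis) at the 25 locus regions in order of coordinate (x axis), as the mean of both lines with standard errors, for control (red) and Fn14 KO (grey) cells. Rings mark adjusted p of at most 0.05 by limma, and 17 control values above 0 and 1 below carry a ring while no Fn14 KO value does.

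The extent of acetylation at the locus followed the same order. Peaks covered 21.1 and 24.2 kb of the 337.7 kb window in untreated MDA-MB-231 control cells and 34.5 and 42.3 kb with TWEAK. In Hs578T control cells they covered 24.9 and 25.1 kb untreated and 51.4 and 48.1 kb with TWEAK. The 8 Fn14 KO lists lay between 21.9 and 26.3 kb. The number of peaks was 12 to 14 in untreated control lists, 17 to 26 in treated control lists and 12 to 16 in Fn14 KO lists. The covered length in the 150 kb upstream was 12.1 to 14.97 kb in untreated control lists and 22.04 to 23.7 kb in treated control lists, whereas on the downstream side it was 5.66 to 7.67 kb and 6.07 to 8.95 kb. The TWEAK effect on covered length was 20.3 kb in control and 0.219 kb in Fn14 KO cells, a difference of 20.04 kb (exact permutation p = 0.031, adjusted p = 0.085).

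**Figure D5:**
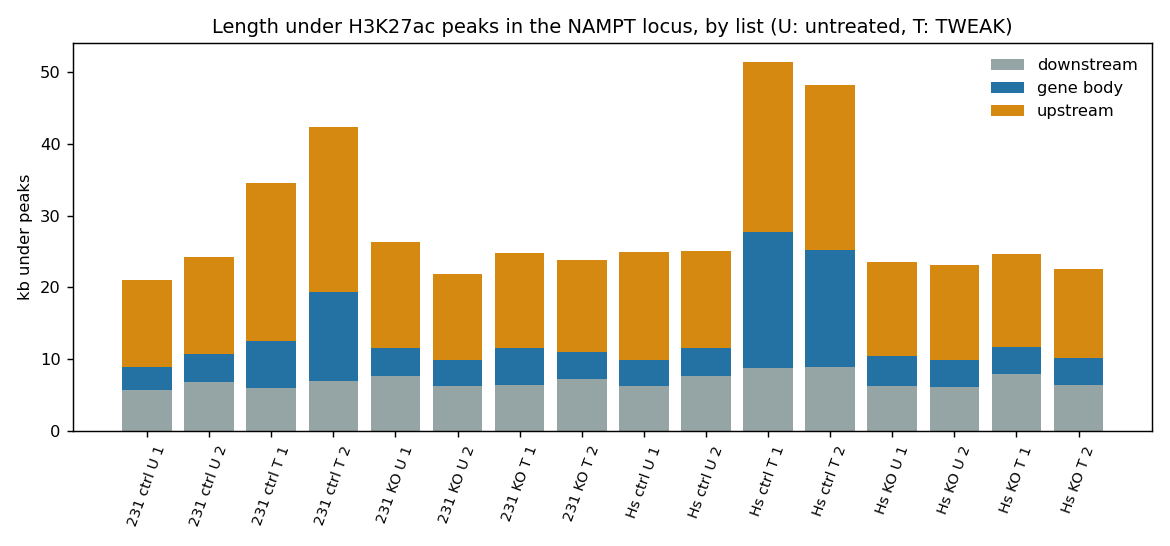
Length under peaks in kb (y axis, from 0) in each of the 16 lists, divided into the parts downstream of NAMPT, within the gene body and upstream. The treated control lists total 34.5 to 51.4 kb and all other lists 21.1 to 26.3 kb, and the Hs578T treated control lists carry the most length over the gene body.

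Because SEs are built by joining neighbouring peaks, domains were also built, peaks of a list being joined across gaps up to the default distance of the ROSE software. This measure was added after the data were seen. In the 12 untreated or Fn14 KO lists enhancer 3 stood alone, in a domain of 4.83 to 5.38 kb with 1 peak. The gap between the enhancer 2 and enhancer 3 peaks was 12.6 to 13.004 kb in these lists and 11.8 to 12.2 kb in the 4 treated control lists, where both peaks were wider. There the domain was 46.6, 66.6, 49.9 and 74.8 kb long and held 5 to 8 peaks. It held all 3 enhancers in 3 of these lists and enhancers 2 and 3 in treated Hs578T control replicate 1. Ranked by base pairs under peaks, the domain went from 2715 to 4368 among 24631 to 27564 domains to between 424 and 747, past the bend of the ranked curve that separates large domains from the rest. Ranked by fold enrichment times base pairs, the domain of enhancer 3 was past that bend in all 16 lists, at 402 to 1081 in the 12 lists and 134 to 168 in the 4.

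The joining rests on a gap close to the joining distance. With a joining distance of 15 kb, chosen after the data were seen, the 3 enhancers were in 1 domain in all 16 lists, of 35.5 to 36.4 kb in the 12 lists and 46.6 to 94.2 kb in the 4 treated control lists. By base pairs under peaks it was then large in the same 4 lists. With 10 kb, enhancer 3 was joined to neither other enhancer in any list. By base pairs under peaks its domain was then large in no list, the 4 treated control lists included. By fold enrichment times base pairs it was large in all 16.

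Without TWEAK, the difference between Fn14 KO and control cells, averaged over the lines, passed limma's test at 0 of 25 locus regions in either direction, against 4.61% higher and 4.43% lower of all regions, with an unadjusted p of at most 0.05 at R4 and R7. That mean hides differences of opposite sign in the lines, which were then tested apart, a comparison added after the data were seen. Medians of opposite sign were not particular to the locus. In MDA-MB-231 the median log2 difference was 0.24 over the 25 regions and 0.15 over all regions. In Hs578T the medians were −0.07 and −0.06. The 0.24 and −0.07 are the values of regions without a peak in any untreated list, such as R19. They come from the centring of the lists and are not measured acetylation. In MDA-MB-231, R25 (log2 0.63, adjusted p = 0.012) and R23 (1.11, adjusted p = 0.032) were higher in Fn14 KO than in control cells by limma and 0 regions were lower, against 8.14% and 7.68% of all regions. In Hs578T, R15 around enhancer 1 was lower in Fn14 KO cells (−0.58, adjusted p = 0.025, limma) and 0 regions were higher, against 3.05% and 2.06%. The Fn14 KO difference was lower in Hs578T than in MDA-MB-231 at 4 of 25 regions by limma and higher at 0, against 7.21% and 5.54%. These were R15 (−0.88, adjusted p = 0.0093), R21 (−1.08, adjusted p = 0.029), R23 (−1.77, adjusted p = 0.022) and R25 (−1.17, adjusted p = 0.0035), all by limma. R23 had no peak in untreated MDA-MB-231 control or untreated Hs578T Fn14 KO lists. Its values therefore depend on the level given to bases outside peaks and on the centring. At enhancer 3 (R18) the Fn14 KO difference was −0.01 in MDA-MB-231 and −0.16 in Hs578T (SE 0.12 each), and neither passed. The tests bear on these lists after centring, and the raw fold enrichment at the NAMPT start was 18.7 and 19.0 in untreated MDA-MB-231 Fn14 KO cells against 27.04 and 26.96 in control cells. The centring offsets of the MDA-MB-231 Fn14 KO lists were −0.02 to −0.42 on the log2 scale, and the part of library quality in this difference was not tested.

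The untreated lines differed at 4 of 25 regions by limma. R21 and R25 were higher in Hs578T than in MDA-MB-231 control cells by limma (log2 1.27, adjusted p = 0.00055, and 0.69, adjusted p = 0.0047), against 13.5% of all regions. R15, around enhancer 1, and R16 were lower by limma (−0.46, adjusted p = 0.025, and −1.12, adjusted p = 0.047), against 11.8%. Without centring the calls at R15 and R16 were lost (adjusted p = 0.25 and 0.14, limma), and R25 missed the threshold without Hs578T control untreated replicate 1 or MDA-MB-231 control untreated replicate 2 (adjusted p = 0.056 and 0.059, limma). Over all groups, the deleted interval of enhancer 1 was lower in Hs578T by 0.88 on the log2 scale and that of enhancer 2 by 0.53, with exact permutation p-values of 0.0015 and 0.0031 and adjusted values of 0.039 for both. In untreated Fn14 KO cells 5 of 25 regions were lower in Hs578T and 0 higher by limma, against 8019 and 7261 of all 55219 regions. Among the 5 the line difference was −1.34 at R15 (adjusted p = 8.5e-06, limma) and −0.49 at R25 (adjusted p = 0.031, limma). At R15 and R25 these line differences were lower than those in control cells by the same contrast as above. The TWEAK effect itself did not pass a test of difference between the lines at any locus region in control cells (lowest adjusted p = 0.14, with 5 of 25 at an unadjusted p of at most 0.05, limma).

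Of the other NAD genes, read at the region over their promoter, the calls with TWEAK in control cells were near the share of all regions, 22.8% higher and 22.3% lower. Of 12 salvage and synthesis genes 8 had a region, of which 1 was higher and 1 lower with TWEAK in control cells by limma. These were NMRK1, a nicotinamide riboside kinase (log2 0.37, adjusted p = 0.0019, limma), and PNP, purine nucleoside phosphorylase (−0.30, adjusted p = 0.018, limma). NMNAT1, the nuclear enzyme that completes NAD+ from the product of NAMPT, had a log2 difference of −0.04 (adjusted p = 0.75, limma). Of 9 NAD consumers 7 had a region, with the sirtuin genes SIRT3 (0.51, adjusted p = 0.00017) and SIRT6 (0.62, adjusted p = 0.0028) higher and the poly(ADP-ribose) polymerase gene PARP2 (−0.60, adjusted p = 4.4e-05) lower by limma. None of the 15 regions was called in Fn14 KO cells, where 0% of all 55219 regions were called in either direction.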

How the data were processed

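H3K27ac ChIP-seq peaks of 16 samples were analysed. The authors used Trimmomatic for trimming, Bowtie2 for alignment (hg38) and MACS2 with input for per-sample peak calls, then dropped blacklisted regions. deepTools is also in the submitters' processing notes, and versions are not given in the sources used here. The deposited lists hold a score, the fold enrichment (a ratio), and the −log10 p-value and −log10 q-value of each peak. The score and p-value columns were not used. Depth is unknown, and read-level tests such as DiffBind were not possible on peak lists.

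Peaks of all lists were merged (at least 1 bp shared). Signal was the log2 mean fold enrichment over a region, with bases outside peaks at 1, so that it combines width and height, and each list was centred on the median of the regions with a peak in all 16 lists. Group means were fitted with limma 3.58.1 (R 4.3.3; 8 groups, eBayes with trend), with Benjamini-Hochberg adjustment over all 55219 regions and a threshold of 0.05. Single measures were compared by exact permutation, two-sided, within line and genotype, adjusted over 25 tests. Both were tested on simulated data. Gene models were GENCODE 44. The named regions were all consensus regions of the locus, and the named genes those of the lists and the 5 most alike, of which 1 is not reported here. The members and lists were chosen with earlier results of these data known. Alternatives changed the measure, centring, filter, overlap and lists included.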

Additional observations from a re-analysis of the deposited data

Results flagged for a closer look

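At 12 of the 25 regions the TWEAK effect differed between control and Fn14 KO cells by limma's interaction contrast at an adjusted p of at most 0.05. R19, R20, R22 and R24 are among the 12, but they are consensus regions only because treated control lists hold a peak there. Their difference therefore follows from how they were chosen, although R24 also had a peak in 1 untreated Hs578T control list. Upstream of the gene the difference in log2 effect, control minus Fn14 KO, was 1.07 at R15 (enhancer 1), 1.36 at R17 (enhancer 2), 0.73 at R18 (enhancer 3), 2.24 at R19, 1.12 at R20, 1.71 at R21, 1.81 at R22, 1.70 at R23, 1.16 at R24 and 1.70 at R25. At the gene end (R8) it was 0.98, and at R4, between genes on the downstream side, it was −2.05. R4, R8, R19, R20, R22, R23 and R24 lacked a peak in some lists, and the size of their values depends on the level given to bases outside peaks. That level also enters the values of regions with a peak in every list. At R17, for example, the untreated control peaks were 902 to 1386 bp wide in a region of 2619 bp. The difference at R20 had an adjusted p of 0.041 and missed the threshold in 12 of 22 alternatives.

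The difference between Fn14 KO and control cells without TWEAK was not alike in the lines at 4 regions by limma, in a comparison added after the data were seen. Hs578T minus MDA-MB-231, it was −0.88 at R15, −1.08 at R21, −1.77 at R23 and −1.17 at R25 on the log2 scale. R23 lacked a peak in some of these lists, so its value depends on the level given to bases outside peaks. The untreated lists compared here also enter the TWEAK effects given above, and the part of library differences between the MDA-MB-231 lists was not tested.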

How the results depend on the processing

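Of 83 alternatives that kept all lists, 69 were classed as unchanged. For single measures this meant the same direction and side of the threshold. For counts of called regions or of peaks it meant an equal or similar number, with no check of direction. The TWEAK effect at the NAMPT start, control minus Fn14 KO, turned from −0.20 to 0.32 when fold enrichment above 1 times width, chosen after the data were seen, replaced the mean. At enhancer 2 it was 0.73 (exact permutation p = 0.056) over bases under a peak only. With the replicate number as a block the values were 0.82, 0.91 and 0.46 at enhancers 1, 2 and 3 (exact permutation p = 0.094, 0.11 and 0.055) and 20.04 kb for covered length (p = 0.078). The numbers are not stated to pair the lists, and same-numbered lists had correlations of deviations of 0.02 to 0.14. In limma the block gave 16 calls in place of 18 for TWEAK in control cells and 12 for the interaction, as without it. With regions present in all 16 lists the counts were 6 and 5, and with 1 kb bins 46 and 36. For Fn14 KO against control, untreated, peaks with −log10 q of at least 2 gave 1 call in place of 0, MDA-MB-231 alone gave 2 and Hs578T alone 1 (both added after the data were seen), and for the lines no centring gave 2 in place of 4.

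Without 1 list at a time the effects ranged from −0.30 to −0.096 at the start, 0.76 to 0.89 at enhancer 1, 0.76 to 1.06 at enhancer 2, 0.38 to 0.53 at enhancer 3 and 18.1 to 22.00025 kb in covered length. At enhancer 2 the exact permutation p exceeded 0.05 in 12 of 16 cases (highest 0.096). At enhancer 3 it did so without Hs578T Fn14 KO untreated replicate 2 (0.066) or Hs578T Fn14 KO TWEAK replicate 1 (0.063), and for covered length without MDA-MB-231 control untreated replicate 1 (0.0525). Calls ranged from 14 to 18 for TWEAK in control cells, 0 to 0 in Fn14 KO cells, 11 to 15 for the interaction, 0 to 1 for Fn14 KO against control (1 without Hs578T control or Fn14 KO untreated replicate 2) and 1 to 5 for the lines (1 without MDA-MB-231 control untreated replicate 2). A lone list was taken to vary like the other groups. The causes were not tested.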

Other observations

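Averaged over the 5 to 100 kb upstream of a start site, the log2 TWEAK effect of NAMPT in control cells was 0.69, rank 116 of 13605 genes, against a median of −0.01, and in Fn14 KO cells 0.01, rank 10841. Within 2 kb of the start it was −0.31 in control cells, rank 9279 of 10565, and −0.11 in Fn14 KO cells, rank 9739. Over the 16 lists the upstream levels most like those of NAMPT were at ZBTB46, EIF2AK4, TEPP, EED and TMEM219 (Pearson r 0.98 each, of 13601 genes), and among the promoter levels most like it were those at FLVCR2 (0.88), FAM177A1 (0.84), ZNF235 and PASK (0.83 each), of 10560 genes. These correlations are descriptions over lists that share groups, and the genes were picked as the highest of many.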
